A study of Mus musculus with 160 samples.

Results

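The 10 genes described here make, break down or sense prostaglandins: Ptgs1, Ptgs2, Ptges, Ptges2, Hpgd, Hpgds, Ptger1, Ptger2, Ptger3 and Ptger4. They were picked by symbol from the 39179 Ensembl genes of the count files, and all 10 had counts in each of the 160 libraries and were tested in each mouse line. The libraries came from distal colon of mice homozygous for a knockout of Nckap1l (named HEM1 in the labels), Dock2, Gpsm3 or Dok3 and of wild-type mice of the same line. The study used dextran sulfate sodium (DSS), which damages the lining of the colon, in the drinking water to induce colitis. Its methods describe both DSS-treated and untreated colons, but the labels do not say which mouse was which, so treatment could not be a term in any test.

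The Nckap1l line gave 16 knockout libraries (4 female, 12 male) and 15 wild-type libraries (8 female, 7 male), of strain C57BL6/J. The Dock2 line, also C57BL6/J, gave 18 knockout (8 female, 10 male) and 24 wild-type libraries (12 female, 12 male). The Gpsm3 line gave 20 libraries of either genotype, C57BL6/J and all male. The Dok3 line, labelled as strain 129, gave 26 knockout and 21 wild-type libraries, all labelled male. DSS was given for 5 days at 3% to the Dock2 and Gpsm3 lines and at 3.5% to the Dok3 line per the labels. The methods add 2.8% for Nckap1l and a round at 3% for Dok3. Colon was taken on day 10, or on day 12 for Nckap1l, and every line had been re-derived through C57BL6/J females, with genotypes housed together. Per the methods the mice came from crosses of heterozygotes and were 8 to 10 weeks old. Each library carried its own sample number. That separate libraries came from separate mice is not stated outright, so a p-value measures the spread between libraries.

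Prostaglandins are lipid mediators made from arachidonic acid. The cyclooxygenases Ptgs1 and Ptgs2 make the common precursor, terminal synthases such as Ptges turn it into prostaglandin E2, and Hpgd inactivates the product. Prostaglandin E2 acts through the receptors EP1 to EP4, and in the colon it is known for its part in epithelial repair, mucus secretion and the inflammatory response. Ptgs2 and Ptges are the inducible members of the pathway, whereas Ptgs1 is expressed in unchallenged tissue as well.

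Among the 10 genes, those that followed inflammation most closely in these colons were Ptgs2 and Ptges, which rose, and Hpgd, which fell. Their promoters are shown for this reason, in RefSeq sequence of GRCm38.p6, from 250 bases before to 30 bases after the annotated RefSeq start. RefSeq promoters matched 9 of the 10 genes. Capitals mark motif matches on either strand. The motifs searched were GGGNNNNNCC (a loose form of the NF-kB motif), TGACG (core of the cyclic AMP response element), TATAAA and GGGCGG (GC box). Coordinates were chr1:150099781-150100060 (plus strand) for Ptgs2, chr2:30903268-30903547 (minus strand) for Ptges and chr8:56294302-56294581 (plus strand) for Hpgd.
Ptgs2: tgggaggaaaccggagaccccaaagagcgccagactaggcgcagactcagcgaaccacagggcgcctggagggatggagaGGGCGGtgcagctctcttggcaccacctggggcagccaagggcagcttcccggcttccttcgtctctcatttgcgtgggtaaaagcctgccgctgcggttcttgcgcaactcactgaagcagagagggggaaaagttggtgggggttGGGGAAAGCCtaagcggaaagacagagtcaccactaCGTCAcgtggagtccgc
Ptges: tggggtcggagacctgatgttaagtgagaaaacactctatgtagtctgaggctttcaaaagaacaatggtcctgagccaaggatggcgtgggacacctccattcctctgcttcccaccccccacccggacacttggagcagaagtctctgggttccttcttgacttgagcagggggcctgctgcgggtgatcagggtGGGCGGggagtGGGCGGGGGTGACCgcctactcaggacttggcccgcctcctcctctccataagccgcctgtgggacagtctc
Hpgd: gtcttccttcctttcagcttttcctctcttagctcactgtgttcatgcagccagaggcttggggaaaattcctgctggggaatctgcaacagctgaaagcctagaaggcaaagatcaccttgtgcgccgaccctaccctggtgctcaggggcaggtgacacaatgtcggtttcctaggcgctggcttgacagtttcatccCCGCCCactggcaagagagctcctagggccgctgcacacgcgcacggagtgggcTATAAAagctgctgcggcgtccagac
In the Ptgs2 promoter GGGNNNNNCC lay at -23 to -14 relative to the start, TGACG lay on the minus strand at 14 to 18 and GGGCGG lay at -170 to -165. In the Ptges promoter GGGNNNNNCC at -38 to -29 overlapped GGGCGG at -42 to -37, and a further GGGCGG lay at -53 to -48. The Hpgd promoter held TATAAA at 5 to 10 and GGGCGG on the minus strand at -50 to -45. Of 32841 RefSeq promoters of the same length, 48.9% held GGGNNNNNCC, 19.9% TGACG, 13.1% TATAAA and 34.7% GGGCGG. These matches describe letters in a window and not sites of binding. The promoters of Ptger3 and Ptger4 held GGGNNNNNCC and GGGCGG as well, and those of Ptgs1, Ptges2, Hpgds and Ptger2 held none of the motifs.

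The totals of the 160 libraries ran from 4344988 to 19993833 counts on genes, with a median of 15989626, so that 3 counts stood for 0.15 to 0.69 CPM, the count scaled to the size of the library. The 10 markers called colonocyte markers here included Slc26a3 and Car1, but also Epcam, a marker of epithelium in general, and Muc2, a goblet cell mucin. Their score thus stands for the colon epithelium rather than for colonocytes alone. These markers had counts in every line, with medians of their summed level of 8790 CPM in Nckap1l, 10900 in Dock2, 11900 in Gpsm3 and 10900 in Dok3. In 32 libraries the 10 skin keratinocyte markers summed to 986 to 14624 CPM, against at most 78.6 CPM in the other 128. These 32 libraries, referred to as libraries with skin RNA, comprised 8 wild-type and 7 knockout libraries of Nckap1l, 4 and 1 of Dock2, 1 and 2 of Gpsm3 and 5 and 4 of Dok3. Sex markers contradicted the label in 5 Dok3 libraries, and the totals of 2 libraries were under 50% of the median. The targeted gene was lower in the knockout, by edgeR's quasi-likelihood test with Benjamini-Hochberg adjustment, in Gpsm3 only, from a median of 3.21 to 0.572 CPM (log2 change -2.06, SE 0.28, adjusted p = 1e-04). Nckap1l (medians 27.2 and 14.8 CPM, log2 change -1.09, SE 0.41, adjusted p = 1), Dock2 (34.2 and 22.5 CPM, -0.62, SE 0.17, adjusted p = 0.21) and Dok3 (3.63 and 3.16 CPM, -0.48, SE 0.39, adjusted p = 1) did not pass. The ranges of the targeted gene in knockout and wild-type libraries overlapped in all 4 lines, so knockout below means the library labelled as such.

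Levels of the genes were compared with each other per length, as RPKM (CPM per kilobase of exon), over all 160 libraries. Hpgd, the 15-hydroxyprostaglandin dehydrogenase that starts the breakdown of prostaglandins, had by far the highest median, 80.9 RPKM. Ptgs1 followed at 11.4, the receptor genes Ptger1 at 8.02 and Ptger4 at 4.35, and the synthase genes Ptges at 3.82, Ptges2 at 3.56, Ptgs2 at 3.35 and Hpgds at 3.07 RPKM. Ptger3 at 1.39 and Ptger2 at 0.585 RPKM were the lowest, and the smallest count of any of the genes in any library was 10, for Ptger2.

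Ptgs2, the inducible cyclooxygenase, was the most variable of the genes, from 6.85 to 258 CPM around a median of 15.3 over all libraries, a 37.6-fold range. Ptger2 spanned 15-fold, Ptges 12.5-fold and Hpgd 12.1-fold. The low end of Ptger2 was 1 Dok3 knockout library at 0.714 CPM, and the next lowest value was 1.34 CPM. By the SD of log2 CPM Ptger2 (0.514) varied less than Ptges (0.629) and Hpgd (0.651). At the other end Ptges2 spanned 2.07-fold (11.6 to 23.9 CPM), Ptger4 2.53-fold (19.1 to 48.3 CPM) and Ptger1 2.57-fold (22.2 to 57.1 CPM). Per length, Ptgs1 exceeded Ptgs2 in most colons: the ratio of Ptgs2 to Ptgs1 had a median of 0.319 and ran from 0.116 to 5.49. Ptgs2 was above Ptgs1 in 16 of 160 libraries, 4 wild-type and 1 knockout library of Nckap1l, 1 wild-type library of Dock2, 4 knockout libraries of Gpsm3, and 2 wild-type and 4 knockout libraries of Dok3. Ptges was above Ptges2 per length in 90 of 160 libraries. Ptges was above Hpgd in 1 library only (ratio 1.84, against a median of 0.0479), and Ptger2 was above Ptger4 in none (highest ratio 0.436).

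**Figure D1:**
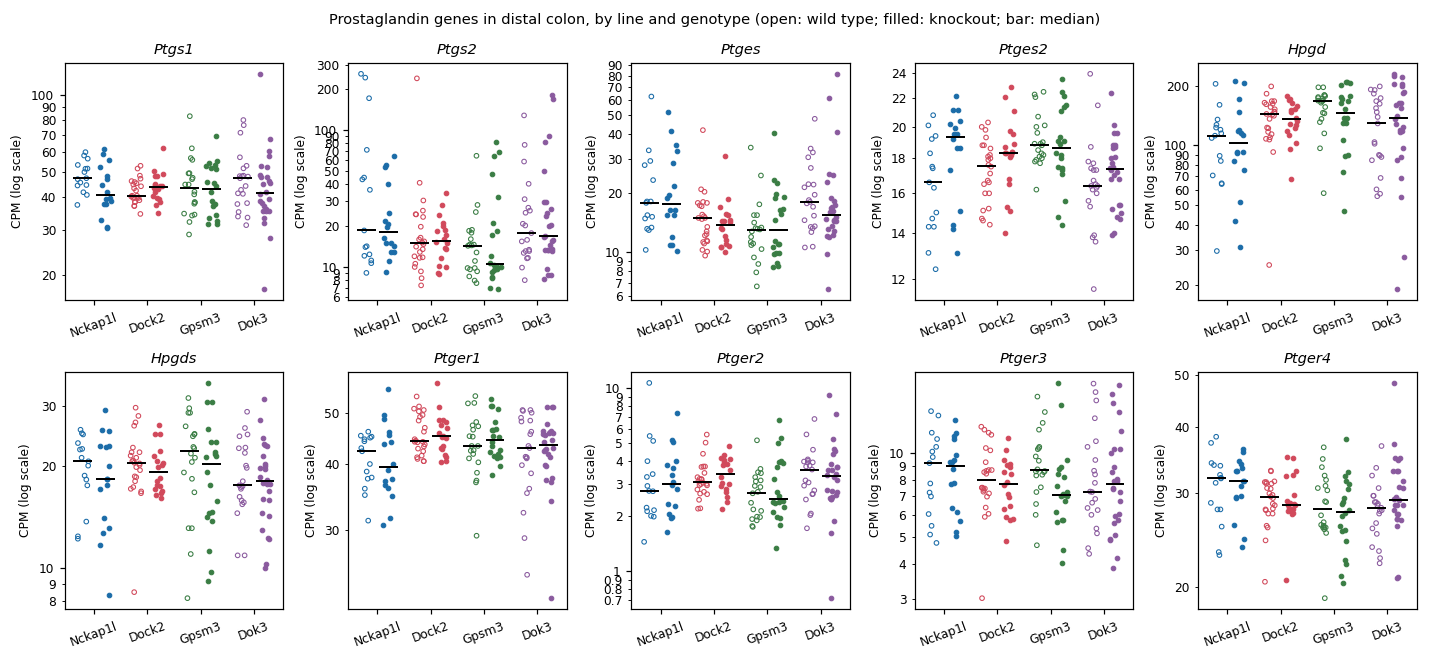
Level of each prostaglandin gene in CPM (log axis) in every library, by mouse line; open circles are wild-type and filled circles knockout libraries, and the bar is the group median. Ptgs2 reached 258 CPM in a wild-type library of Nckap1l against an overall median of 15.3 CPM, and knockout and wild-type libraries overlapped for every gene in every line.

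Among the cyclooxygenases, Ptgs1 (chr2:36230426-36252272, ENSMUSG00000047250, GRCm38) ran from 17.6 to 121 CPM over all libraries, with both extremes in Dok3 knockouts. In wild-type colons the lowest, median and highest values were 37.4, 47.5 and 60 CPM in Nckap1l and 34.5, 40.6 and 53.1 CPM in Dock2. They were 28.7, 43.5 and 82.8 CPM in Gpsm3 and 31.2, 47.5 and 80 CPM in Dok3. The knockout libraries overlapped these values, with medians of 40.8, 43.9, 43 and 41.7 CPM in the same order of lines.

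Ptgs2 (chr1:150100031-150108227, ENSMUSG00000032487) was low in most colons and high in a few of each line. In Nckap1l it had a lowest, median and highest value of 9, 18.4 and 258 CPM in wild-type and 9.2, 17.9 and 64.1 CPM in knockout libraries. In Dock2 these were 7.29, 14.8 and 239 CPM in wild-type and 8.81, 15.5 and 34.4 CPM in knockout libraries. The wild-type medians and knockout medians of these lines lay close together, and the groups differed mainly in how high their top libraries reached. In Gpsm3 Ptgs2 ran over 7.57, 14.3 and 64.8 CPM in wild-type and 6.85, 10.4 and 81.6 CPM in knockout libraries. In Dok3 it ran over 7.96, 17.6 and 128 CPM in wild-type and 8.18, 16.7 and 180 CPM in knockout libraries. Here the highest values belonged to the knockouts, and the ranges overlapped in all 4 lines.

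Of the prostaglandin E synthases, Ptges (chr2:30889471-30929863, ENSMUSG00000050737), the inducible microsomal enzyme, had lowest, median and highest values of 10.3, 17.9 and 62.5 CPM in wild-type and 10.2, 17.8 and 51.9 CPM in knockout libraries of Nckap1l. Its medians in wild-type and knockout libraries were 14.9 and 13.8 CPM in Dock2, 13 and 13 CPM in Gpsm3 and 18.1 and 15.5 CPM in Dok3, with a top value of 81.6 CPM in a Dok3 knockout. Ptges2 (chr2:32395896-32405772, ENSMUSG00000026820), a second, constitutive synthase, stayed between medians of 16.4 and 19.3 CPM in all 8 groups. Hpgds (chr6:65117293-65144908, ENSMUSG00000029919) makes prostaglandin D2 rather than E2 and had medians between 17.5 and 22.1 CPM.

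Hpgd (chr8:56294585-56321043, ENSMUSG00000031613) had lowest, median and highest values of 29.5, 112 and 204 CPM in wild-type and 30.9, 103 and 210 CPM in knockout libraries of Nckap1l. In Dock2 they were 25.1, 144 and 198 CPM in wild-type and 67.6, 136 and 177 CPM in knockout libraries. Gpsm3 medians were 167 and 145 CPM, and Dok3 medians were 129 and 138 CPM, with the lowest value of all, 19 CPM, in a Dok3 knockout. Hpgd was thus spread downward from a high level, the reverse of Ptgs2.

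Among the prostaglandin E2 receptors, Ptger4 (chr15:5206661-5244187, ENSMUSG00000039942), which signals through cyclic AMP, had medians of 27.7 to 32 CPM in the 8 groups. Ptger2 (chr14:44988195-45003820, ENSMUSG00000037759), also coupled to cyclic AMP, had medians of 2.49 to 3.6 CPM and a highest value of 10.7 CPM in a wild-type Nckap1l library. Ptger3 (chr3:157566892-157645888, ENSMUSG00000040016), which lowers cyclic AMP, had medians of 7.07 to 9.18 CPM. Ptger1 (chr8:83666678-83672753, ENSMUSG00000019464) had medians of 39.5 to 45.2 CPM. The libraries were made with a stranded kit, but the strand setting of the counting is not given in the sources used here, so reads of genes that overlap on opposite strands may not be separated, and the values of Ptger1 are uncertain for this reason. Exon overlaps with other genes were 148 bases of Ptgs1 with Gm43621, 144 and 246 bases of Ptger2 with Gm49364 and Gm17173, and 82 and 1015 bases of Ptger4 with Ttc33 and Gm15937.

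In wild-type colons the order of the lines was tested for each gene between neighbours, 30 pairs in all, with a two-sided permutation test on mean log2 CPM and Benjamini-Hochberg adjustment. For 29 of the 30 pairs the neighbours did not differ beyond their spread. Ptges2 was higher in Gpsm3 than in Dock2 by 0.15 on the log2 scale (4.27 ± 0.12, SD, n = 20, against 4.12 ± 0.15, SD, n = 24; permutation p = 0.00092, adjusted p = 0.0276). Without TMM scaling that pair had an adjusted permutation p of 0.481. The labels give both lines the same strain, dose and day, but the Gpsm3 libraries were all male while the Dock2 wild type held 12 female and 12 male libraries. Within Dock2, over both genotypes, the female minus male log2 difference of Ptges2 was 0.073 (SE 0.05, adjusted p = 0.371 by edgeR). A comparison of the pair in males only was not run, and the part of sex or cohort was not tested.

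The study asked how loss of each gene changes the colon under colitis, and knockout was first compared with wild type within each line, with sex as a covariate in Nckap1l and Dock2. No prostaglandin gene passed an adjusted p of 0.05 in any line by edgeR's quasi-likelihood test. The counts were 0 of 10 genes in Nckap1l, where 0% of all 17947 genes tested passed, and 0 of 10 in Dock2, where 0.0340% of 17648 did. They were 0 of 10 in Gpsm3, where 0.00569% of 17560 passed, and 0 of 10 in Dok3, where 0% of 17612 passed. At an unadjusted p under 0.05, 1 of the 10 genes was listed in Nckap1l and 0 in each of the other lines. DESeq2 and limma-voom called 0 of the 10 genes as well.

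The gene listed in Nckap1l was Ptgs2, at a log2 change of -1.35 (SE 0.51, unadjusted p = 0.0124, adjusted p = 1 by edgeR). The estimate moved with the method. It was -0.54 (unadjusted p = 0.298) by limma-voom, which works on log values, -0.80 with the runs of sample numbers as a covariate, and -2.46 (SE 0.71, adjusted p = 0.36) in the 16 libraries without skin RNA. In the other lines the log2 change of Ptgs2 was -0.59 (SE 0.34) in Dock2, 0.48 (SE 0.33) in Gpsm3 and 0.34 (SE 0.38) in Dok3. None of these signs was stable: it turned to 0.042 by DESeq2 in Dock2, to -0.042 with the inflammation score as a covariate in Gpsm3, and to -0.043 without the libraries with skin RNA in Dok3. The other 9 genes differed less: their log2 changes lay between -0.10 (Ptger3) and 0.09 (Ptges2) in Nckap1l, -0.14 (Ptger3) and 0.08 in Dock2, -0.25 (Ptger3) and 0.19 (Ptger2) in Gpsm3, and -0.08 (Ptgs1) and 0.14 (Hpgd) in Dok3. Their SEs ran from 0.04 to 0.26, so that changes of that size could not be separated from the spread of the libraries.

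A test of whether the knockout effect itself differed between the 4 lines called 0 of the 10 genes, against 0.690% of all genes tested. Ptgs2 came closest, with an unadjusted p of 0.00445 and an adjusted p of 0.259 by edgeR. It was the only gene of the 10 with an unadjusted p under 0.05, and all other adjusted p-values were 1.

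Females and males were compared in the Nckap1l and Dock2 lines. No prostaglandin gene passed, 0 of 10 in Nckap1l, where 0.178% of all genes tested did, and 0 of 10 in Dock2, where 9.75% did. At an unadjusted p under 0.05 there were 3 genes in Nckap1l and 2 in Dock2. In Nckap1l Ptgs1 was at a female minus male log2 difference of 0.31 (SE 0.09, adjusted p = 0.138 by edgeR), Ptges2 at -0.23 and Ptger1 at -0.21. Most female but only a minority of male libraries of Nckap1l held skin RNA. Over all lines, libraries with and without skin RNA had medians of 51.8 and 41.4 CPM for Ptgs1. These were 15.3 and 18.3 CPM for Ptges2 and 37.3 and 45 CPM for Ptger1. The part of skin RNA in the Nckap1l sex differences was not tested. In Dock2 Hpgds was at -0.23 (SE 0.08, adjusted p = 0.0619) and Ptger3 at -0.27 (adjusted p = 0.11). The knockout effect did not pass as different between sexes for any of the 10 genes (0% of all genes in Nckap1l and 0.198% in Dock2), with 0 and 1 of them at an unadjusted p under 0.05.

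Since the treatment of each mouse is unknown, each library was placed on a continuous inflammation score. The score was the mean log2 CPM of 25 genes of neutrophils and acute inflammation, among them S100a8, S100a9, Il1b, Cxcl2, Lcn2 and Nos2, with none of the 10 prostaglandin genes. A difference of 1 in the score stands for a doubling of these genes on average. The lowest, median and highest scores were -0.74, 0.8 and 6.5 in wild-type and -0.89, 1.23 and 5.21 in knockout libraries of Nckap1l. They were -0.94, 0.37 and 6.25 in wild-type and -1.01, 0.32 and 3.33 in knockout libraries of Dock2. In every line a majority of colons sat at the low end and a tail reached high scores, and in Dock2 a wild-type library stood alone above the rest. Gpsm3 ran over -1.31, -0.31 and 5.1 in wild-type and -1.31, 0.05 and 5.62 in knockout libraries, and Dok3 over -1, 0.31 and 7.04 and over -1.29, 0.2 and 7.97. The mean score of knockout minus wild type was -0.07, -0.05, 0.64 and -0.13 in Nckap1l, Dock2, Gpsm3 and Dok3, with an adjusted permutation p of 0.93 in each.

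Across each line the change of every gene per unit of the score, the slope on the log2 scale, was fitted with genotype, and with sex where both sexes were present. Of the 10 genes, 4 rose and 3 fell in Nckap1l, where 23% of all genes tested rose and 24.5% fell. In Dock2 4 rose and 4 fell, against 28.3% and 27.0% of all genes. In Gpsm3 3 rose and 2 fell, against 28.0% and 26.2%, and in Dok3 4 rose and 3 fell, against 32.6% and 30.4%. In both directions together 7, 8, 5 and 7 of the 10 genes passed, beside 47.6%, 55.3%, 54.2% and 63% of all genes. The median slope of the 10 genes was 0.006, -0.009, -0.001 and -0.009 in the 4 lines, beside 0, -0.001, 0 and 0.002 over all genes. The bulk tissue does not separate fewer cells of a type from less RNA per cell, which cannot be told apart for any of the genes.

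Ptgs2 had the steepest slope of the 10 genes in each line. It rose by 0.56 ± 0.05 (SE) on the log2 scale per score unit in Nckap1l (adjusted p = 4.19e-10 by edgeR), 0.50 ± 0.04 in Dock2 (1.29e-12), 0.45 ± 0.04 in Gpsm3 (5.85e-13) and 0.43 ± 0.02 in Dok3 (3.83e-20). That is 1.47-, 1.42-, 1.37- and 1.35-fold per unit. Pearson's r with the score was 0.86, 0.72, 0.85 and 0.91 and Spearman's rho 0.84, 0.64, 0.71 and 0.75 (n = 31, 42, 40 and 47, adjusted permutation p of r = 2.35e-05 in each line over 40 relations). Within runs of sample numbers, the only cohort information in the labels, r was 0.76, 0.91 and 0.92 in Nckap1l, 0.87 and 0.83 in Gpsm3 and 0.92 and 0.9 in Dok3. With the 2 libraries farthest from the median score left out it was 0.81, 0.61, 0.78 and 0.88. Without the libraries with skin RNA the slope was 0.64, 0.54, 0.44 and 0.39 in the 4 lines. In Dock2 the slope of Ptgs2 fell to 0.31 when the library with the highest score was left out, and it still passed.

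Ptges rose along with Ptgs2, at a slope of 0.27 ± 0.03 in Nckap1l (adjusted p = 2.48e-08 by edgeR), 0.24 ± 0.02 in Dock2 (1.49e-12), 0.23 ± 0.03 in Gpsm3 (7.33e-09) and 0.24 ± 0.02 in Dok3 (1.53e-13). Its r with the score was 0.8, 0.87, 0.78 and 0.83 and its rho 0.73, 0.82, 0.66 and 0.79. Within runs of sample numbers r of Ptges was between 0.75 and 0.92, and without the 2 farthest libraries it was 0.76, 0.8, 0.67 and 0.76. The other synthase of the same product, Ptges2, did not rise with the score. Its slope was -0.044 ± 0.015 in Dock2 (adjusted p = 0.0148 by edgeR), the only line where it passed, and -0.035, -0.009 and -0.01 in Nckap1l, Gpsm3 and Dok3.

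Hpgd fell with the score in every line, at a slope of -0.27 ± 0.03 in Nckap1l (adjusted p = 2.9e-08 by edgeR), -0.26 ± 0.03 in Dock2 (8.56e-11), -0.21 ± 0.02 in Gpsm3 (5.4e-10) and -0.25 ± 0.03 in Dok3 (4.62e-11). That is 0.827-, 0.838-, 0.866- and 0.842-fold per unit. Its r was -0.85, -0.85, -0.86 and -0.85 and its rho -0.85, -0.83, -0.76 and -0.8, and within runs of sample numbers r was between -0.94 and -0.74. Without the 2 farthest libraries r of Hpgd was -0.85, -0.79, -0.8 and -0.82. Ptges and Hpgd moved in opposite directions over the same colons, while Hpgds fell as Hpgd did and Ptges2 did not rise. The r between Ptges and Hpgd was -0.87, -0.86, -0.82 and -0.89, rho was -0.79, -0.76, -0.74 and -0.85, and r without the 2 farthest libraries was -0.79, -0.72, -0.69 and -0.81. After the score was taken out of both, that r was -0.59, -0.45, -0.46 and -0.62. Ptgs2 and Ptges, by contrast, had an r of 0.67, 0.7, 0.7 and 0.76 and of -0.09, 0.2, 0.12 and 0.04 once the score was taken out. Skin RNA and the make-up of the tissue were not taken out of either pair. Libraries with and without skin RNA had medians of 22 and 13.6 CPM for Ptges and of 97.5 and 150 CPM for Hpgd. The part of tissue make-up in the remaining r of Ptges and Hpgd was not tested. The 180 pairwise relations among the 10 genes were examined after the data had been seen. By both Pearson's and Spearman's adjusted permutation p, 29 of them were positive and 23 negative.

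**Figure D2:**
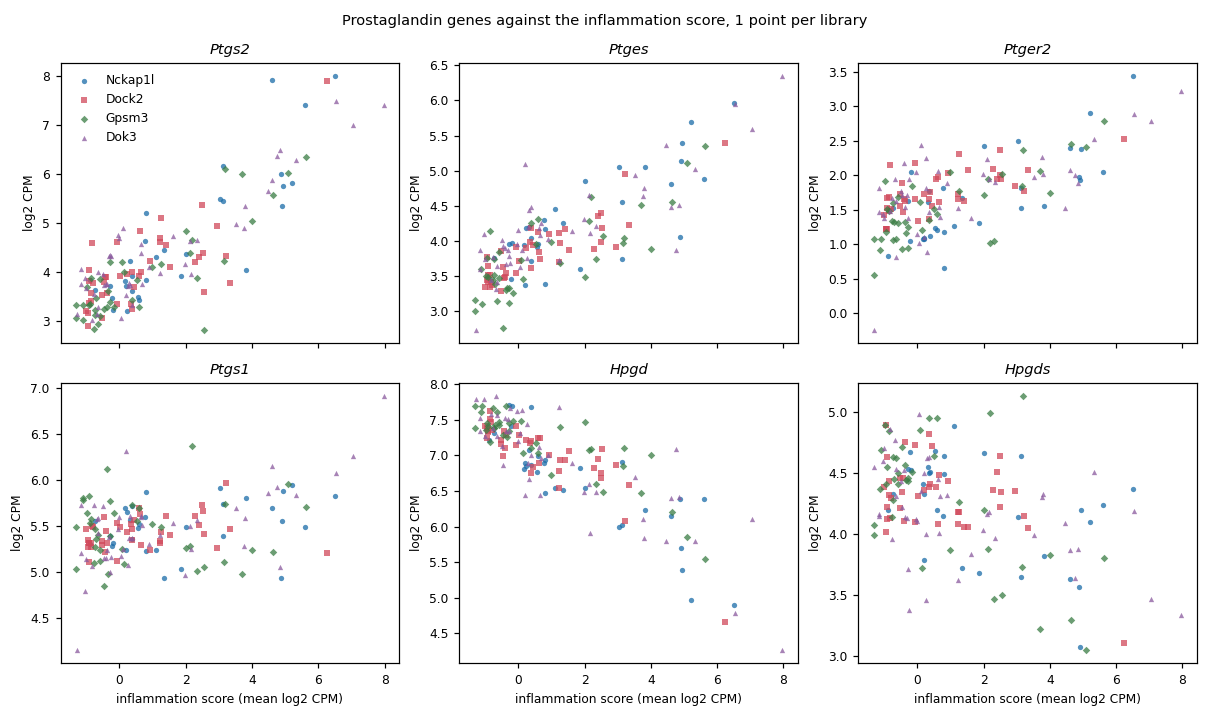
Log2 CPM of 6 prostaglandin genes (y axis) against the inflammation score (x axis, mean log2 CPM of 25 inflammation genes), with 1 point for each of the 160 libraries coloured by mouse line. Ptgs2, Ptges and Ptger2 climb with the score and Hpgd declines, with r of 0.91 for Ptgs2 and -0.85 for Hpgd in Dok3.

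Ptgs1, the constitutive cyclooxygenase, rose less. Its slope was 0.047 ± 0.018 in Nckap1l (adjusted p = 0.0269 by edgeR), 0.045 ± 0.017 in Dock2 (0.0232) and 0.117 ± 0.02 in Dok3 (1.71e-06), and it did not pass in Gpsm3 (0.007 ± 0.029, 0.858). Its correlation with the score passed in Dok3 only, at r = 0.61 and rho = 0.46 (adjusted permutation p = 2.35e-05 and 0.00311). In Nckap1l r was 0.32 and rho 0.32 (adjusted permutation p = 0.108 and 0.109). In Dock2 they were 0.27 and 0.32 (adjusted permutation p = 0.108 and 0.0651). Without the libraries with skin RNA the Nckap1l and Dock2 slopes of Ptgs1 were 0.014 and 0.029 and did not pass, while that of Dok3 was 0.14 (adjusted p = 3.01e-07). Ptgs1 was the only gene of the 10 whose slope passed as different between the 4 lines (adjusted p = 0.0279 by edgeR's F test), where 7.65% of all genes tested did. That p was 0.000451 without the libraries with skin RNA, when Ptgs2 passed as well (0.0393), 0.0413 in males only, and 0.178 without the library with the highest score of each line. These fits were chosen after seeing the data. The fit of males only leaves out the difference in sex make-up. Line and cohort, and for Nckap1l and Dok3 also dose, day or strain, cannot be told apart in the comparison of lines.

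Among the receptors, Ptger2 rose with the score in all 4 lines, by 0.23 ± 0.04 in Nckap1l (adjusted p = 5.28e-06 by edgeR), 0.15 ± 0.03 in Dock2 (3.05e-06), 0.20 ± 0.03 in Gpsm3 (1.07e-07) and 0.16 ± 0.02 in Dok3 (5.02e-07). Its r with the score was 0.74, 0.66, 0.75 and 0.65, its rho 0.66, 0.65, 0.63 and 0.55, and r without the 2 farthest libraries 0.69, 0.57, 0.65 and 0.53. Ptger3 fell in 3 of the 4 lines, with slopes of -0.10 ± 0.03 in Nckap1l (0.0134), -0.11 ± 0.04 in Dock2 (0.00888) and -0.13 ± 0.03 in Dok3 (0.00046). In Gpsm3 the slope of Ptger3 was -0.069 ± 0.04 (0.141). The Nckap1l slope was -0.036 (adjusted p = 0.573) without the libraries with skin RNA. In Dock2 the relation rested on few libraries, since r was -0.38 and rho -0.12, r was -0.02 without the 2 farthest libraries, and the slope without the highest-scoring library was -0.053 (adjusted p = 0.205).

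Ptger1 and Ptger4, the receptor genes with the highest levels, did not pass in any line. Slopes of Ptger1 lay between -0.016 and 0.011. Those of Ptger4 were 0.007, -0.018, -0.04 and -0.008, and in Gpsm3 its adjusted p was 0.0517 while its correlation passed (r = -0.37, adjusted permutation p = 0.0318; rho = -0.47, 0.00436). Of the receptors that raise cyclic AMP, Ptger2 thus passed in every line and Ptger4 in none, and the difference between them was not tested.

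Hpgds, the prostaglandin D2 synthase of mast cells, some macrophages and tuft cells, fell with the score in all 4 lines. Its slopes were -0.08 ± 0.031 in Nckap1l (adjusted p = 0.035 by edgeR), -0.10 ± 0.02 in Dock2 (0.000304), -0.14 ± 0.04 in Gpsm3 (0.00267) and -0.07 ± 0.02 in Dok3 (0.00495). The Nckap1l call did not hold without the libraries with skin RNA (-0.094, adjusted p = 0.0737), nor with the runs of sample numbers as a covariate (-0.072, 0.0842). In Dock2 rho of Hpgds with the score was -0.2 (adjusted permutation p = 0.236), and r went from -0.47 to -0.11 without the 2 farthest libraries.

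**Figure D3:**
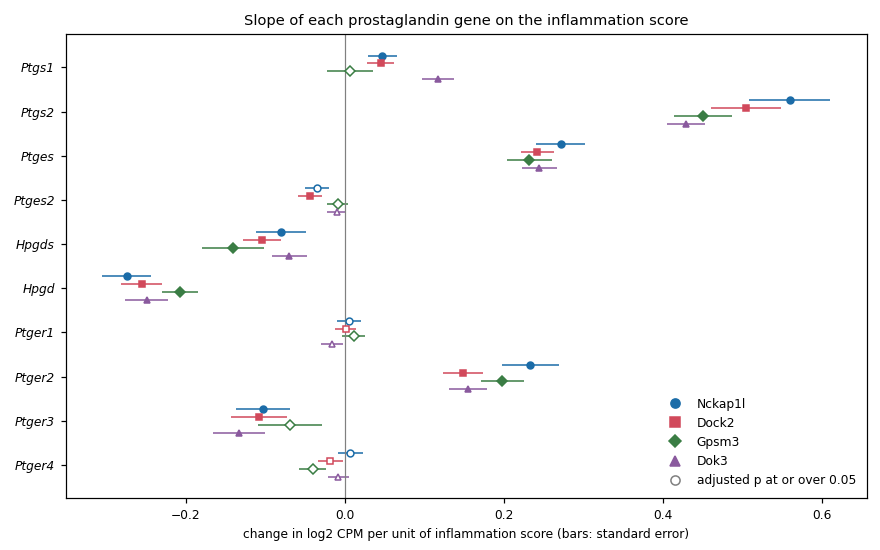
Slope of each prostaglandin gene on the inflammation score, in log2 CPM per score unit, with 1 point per mouse line and bars of 1 SE; open points had an adjusted p of at least 0.05 by edgeR. Ptgs2 lies farthest to the right at 0.43 to 0.56, Hpgd farthest to the left at -0.27 to -0.21, and Ptger1 and Ptger4 lie near 0.

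Hpgds and Ptger3 varied together. Their r was 0.3 in Nckap1l, 0.79 in Dock2, 0.76 in Gpsm3 and 0.66 in Dok3, with rho of 0.38, 0.68, 0.73 and 0.65 (adjusted permutation p of r = 0.185 in Nckap1l and 7.83e-05 in the others, over the 180 relations). Without the 2 farthest libraries it was 0.35, 0.65, 0.7 and 0.6, and with the score taken out of both it was 0.09, 0.75, 0.73 and 0.56. Within runs of sample numbers it was -0.03 to 0.66 in Nckap1l, 0.77 to 0.78 in Gpsm3 and 0.59 to 0.74 in Dok3. In Dock2, Gpsm3 and Dok3 r between the pair was thus 0.56 or more with and without the score.

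Whether the slope differed between knockout and wild-type libraries was tested in each line. No prostaglandin gene passed by edgeR (0 of 10 in each line, against 0%, 0.0170%, 0% and 0.00568% of all genes tested in Nckap1l, Dock2, Gpsm3 and Dok3). The genes at an unadjusted p under 0.05 numbered 1, 2, 1 and 0. Ptgs2 in Nckap1l had the largest difference, a knockout slope 0.40 lower than the wild-type slope (difference -0.40, SE 0.08, unadjusted p = 1.87e-05, adjusted p = 0.119). The highest Ptgs2 value was 258 CPM in the wild-type and 64.1 CPM in the knockout libraries of this line. The wild-type libraries with scores of 4.62, 5.6 and 6.5 held no skin RNA. Knockout libraries with scores of 3.83, 4.91, 4.94 and 5.21 held it, and the one at 4.89, with 64.1 CPM, did not. Genotype and skin RNA thus largely coincided among the high-scoring libraries of this line. In further fits chosen after seeing the data, the difference was -0.40 by limma-voom (adjusted p = 0.166), -0.41 by DESeq2 (0.00107, with 973 genes called), -0.44 in males only (0.203) and -0.30 without the libraries with skin RNA (0.831). All kept the sign, and DESeq2 was the only tool whose adjusted p was under 0.05.

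In Dock2 the difference for Ptgs2 was -0.36 (SE 0.10, unadjusted p = 0.000749, adjusted p = 0.336 by edgeR), and -0.15 (unadjusted p = 0.146) without the wild-type library with the highest score. In Gpsm3 and Dok3 it was 0.11 (SE 0.08) and 0.06 (SE 0.06). Within genotypes, r of Ptgs2 with the score was 0.95 in wild-type and 0.87 in knockout libraries of Nckap1l and 0.83 and 0.46 in Dock2.

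**Figure D4:**
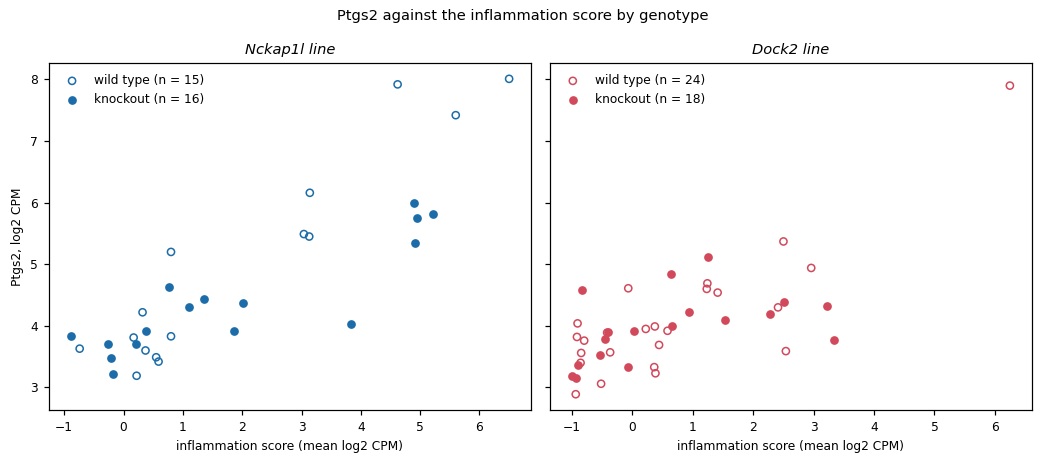
Ptgs2 in log2 CPM (y axis) against the inflammation score (x axis) in the Nckap1l and Dock2 lines, with open circles for wild-type and filled circles for knockout libraries. The high-scoring wild-type libraries of Nckap1l reach 258 CPM while the knockout libraries reach 64.1 CPM, and a wild-type library at a score of 6.25 stands alone in Dock2. In Nckap1l the wild-type libraries at scores of 4.62 to 6.5 held no skin RNA, while most knockout libraries at 3.83 to 5.21 did.

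Markers of other cell types moved with the score, and the part of macrophages, fibroblasts and endothelium in the slopes was not tested. The macrophage list rose with 7 of 8 markers in each line, and the fibroblast list with 7, 6, 7 and 7 of 7. Endothelial markers rose in 5, 3, 3 and 5 of 5, skin markers in 0 of 10, 8 of 8, 4 of 6 and 8 of 8 tested, and striated muscle markers in 0 of 8, 1 of 6, 0 of 6 and 7 of 7 tested. Smooth muscle markers fell in 3, 2, 7 and 1 of 7. Summed macrophage levels ran from 231 to 1390 CPM in Nckap1l, 235 to 572 in Dock2, 120 to 720 in Gpsm3 and 99.6 to 1150 in Dok3. Of the 10 colonocyte markers 8, 4, 6 and 8 fell, and in Dock2 2 rose. With the colonocyte score as a further covariate, the slope of Ptgs2 was 0.65, 0.52, 0.53 and 0.43. The slopes of Ptges became 0.12, 0.19, 0.11 and 0.12, and those of Hpgd -0.13, -0.22, -0.12 and -0.13. Ptgs2 kept its slope under that covariate, the slopes of Ptges and Hpgd were smaller by more than 1.5 times in Nckap1l, Gpsm3 and Dok3, and all 12 passed.

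Correlations with the mean log2 CPM of each cell-type list, 320 relations in all, were examined after seeing the data. Hpgd, which colonocytes express, went with the colonocyte score (r = 0.92, 0.57, 0.87 and 0.88 in Nckap1l, Dock2, Gpsm3 and Dok3; rho = 0.88, 0.59, 0.71 and 0.82). Ptges went with the fibroblast score (r = 0.87, 0.68, 0.81 and 0.91), to a similar degree with the endothelial score (r = 0.91, 0.64, 0.69 and 0.88), and against the colonocyte score (r = -0.88, -0.67, -0.81 and -0.86). Ptgs1 likewise went with both, at r of 0.76, 0.58, 0.56 and 0.75 for the endothelial and 0.66, 0.67, 0.42 and 0.77 for the fibroblast score. Ptger2 and Ptgs2 went with the macrophage score, with r of 0.76, 0.61, 0.67 and 0.77 for Ptger2 and of 0.73, 0.5, 0.65 and 0.82 for Ptgs2. For these 8 relations rho lay between 0.24 and 0.88 where r was positive and between -0.82 and -0.58 for Ptges and the colonocyte score. Without the 2 libraries farthest from the median of the cell-type score r kept its sign throughout, and the weakest was Ptgs1 with the endothelial score in Dock2, at 0.33. Within runs of sample numbers all kept their sign as well, at 0.36 or more in size. Several of the lists moved with inflammation themselves, so such a correlation does not place a transcript in a cell type.

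Hpgds followed neither the tuft cell, the mast cell nor the smooth muscle score in all 4 lines. Its r with the tuft cell score was 0.38, 0.01, 0.65 and 0.12, with the mast cell score -0.16, -0.11, 0.15 and 0.1, and with the smooth muscle score 0.44, 0.26, 0.73 and -0.01. With the macrophage score r of Hpgds was negative in each line, at -0.41, -0.33, -0.16 and -0.45, and rho was -0.42, -0.3, -0.12 and -0.52. Summed mast cell markers lay between 35.4 and 156 CPM and tuft cell markers between 38.9 and 235 CPM over all libraries. Ptger1 went against the skin score in Nckap1l (r = -0.76) and Dok3 (r = -0.8), the lines with most libraries with skin RNA.

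The libraries with skin RNA differed in several of the genes. Their median was 22 CPM for Ptges against 13.6 CPM in the other 128, 51.8 against 41.4 for Ptgs1, 10.1 against 7.74 for Ptger3, 97.5 against 150 for Hpgd and 37.3 against 45 for Ptger1. Ptgs2 was at 19 against 15 CPM. How much of these differences the skin RNA itself accounts for was not tested.

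The genes whose levels were most like those of 9 of the prostaglandin genes, over 160 libraries and 14513 genes after group and sex means were removed, differed from gene to gene. For Ptgs2 they were Ereg (r = 0.89), Nlrp3 (0.87) and Il1b (0.87). Il1b is in the inflammation list. For Ptges they were Entpd1 (0.91), Irak3 (0.91) and Emilin2 (0.9), and for Hpgd Trak1 (0.93), Vdr, the vitamin D receptor (0.93), and Tmem246 (0.92). For Ptgs1 the nearest was Mcam (0.77), an endothelial and pericyte adhesion molecule, and for Ptger2 Msr1 (0.8), a macrophage scavenger receptor. The nearest genes of Ptges2 (Slc25a39, 0.71), Hpgds (Bche, 0.67), Ptger3 (Pink1, 0.66) and Ptger4 (Fam114a1, 0.63) were less like them. Over the 128 libraries without skin RNA, a set chosen after seeing the data, Ereg stayed nearest to Ptgs2 (0.91), while the nearest to Ptger3 was Hpgds (0.68) and to Hpgd Slc10a5 (0.95).

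The wider eicosanoid pathway was followed in 32 further genes of phospholipases, terminal synthases, transporters, receptors and the leukotriene branch, of which 29 were tested in Nckap1l and 28 in each other line. With the score 13 rose and 5 fell in Nckap1l, 13 rose and 5 fell in Dock2, 7 rose and 6 fell in Gpsm3, and 17 rose and 5 fell in Dok3. Of all genes tested, 23% rose and 24.5% fell in Nckap1l, 28.3% and 27.0% in Dock2, 28.0% and 26.2% in Gpsm3 and 32.6% and 30.4% in Dok3. The median slope of the eicosanoid genes was 0.075, 0.068, 0.035 and 0.091, against 0, -0.001, 0 and 0.002 over all genes. Alox5ap had the smallest p of these genes in all 4 lines. This activator of 5-lipoxygenase, which opens the leukotriene branch, had slopes of 0.47 ± 0.04, 0.44 ± 0.03, 0.42 ± 0.03 and 0.57 ± 0.03 (adjusted p = 4.24e-12, 3.92e-17, 3.06e-15 and 4.49e-22 by edgeR). In slope it lay beside Ptgs2.

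Ptgr2, a reductase that acts downstream of Hpgd in prostaglandin breakdown, fell in all 4 lines, with slopes of -0.11, -0.15, -0.12 and -0.12 (adjusted p = 1.15e-05, 1.53e-10, 7.54e-14 and 1.08e-12 by edgeR). The third gene by p was Tbxas1, thromboxane synthase, in Nckap1l (0.13, 1.28e-05), Abcc4, an exporter of prostaglandins, in Dock2 (0.11, 2.11e-08), the carbonyl reductase Cbr1 in Gpsm3 (-0.15, 1.57e-07) and the leukotriene B4 receptor gene Ltb4r1 in Dok3 (0.49, 6.66e-13). Outside that rule, and chosen after their values were seen, Slco2a1, the transporter that takes prostaglandins up for breakdown, fell with slopes of -0.072, -0.094, -0.12 and -0.079, and Ptgir, the prostacyclin receptor gene, rose with slopes of 0.23, 0.17, 0.14 and 0.19. All 8 of these slopes passed.

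Between knockout and wild type, 0 of the 29 genes tested in Nckap1l and 0 of the 28 in each other line passed by edgeR. Of all genes tested, 0%, 0.0340%, 0.00569% and 0% passed in Nckap1l, Dock2, Gpsm3 and Dok3. At an unadjusted p under 0.05 the eicosanoid genes numbered 1, 2, 2 and 0. Between females and males 0 passed in Nckap1l, where 0.178% of all genes tested did. In Dock2, where 9.75% of all genes tested passed, 1 did. This was the phospholipase gene Pla2g5, which was lower in females (log2 difference -0.47, SE 0.14, adjusted p = 0.0322 by edgeR). None of the eicosanoid genes had a slope that passed as different between genotypes by edgeR. Of all genes tested, 0%, 0.0170%, 0% and 0.00568% did in Nckap1l, Dock2, Gpsm3 and Dok3. At an unadjusted p under 0.05 the eicosanoid genes numbered 9, 1, 0 and 2 in these lines. The share of all genes at that unadjusted p was not counted.

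**Figure D5:**
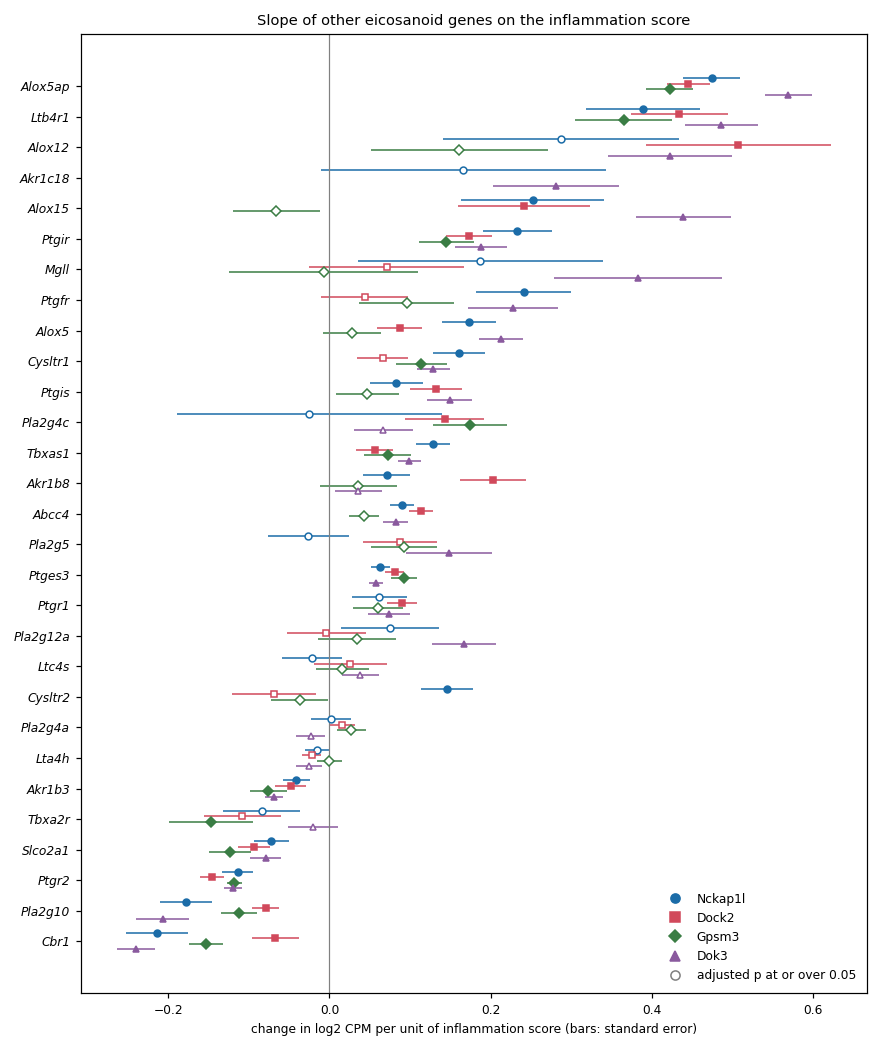
Slope on the inflammation score, in log2 CPM per score unit, of the other eicosanoid genes tested, ordered by their mean slope, with 1 point per mouse line. Alox5ap lies between 0.42 and 0.57 and Ltb4r1 reaches 0.49, while Ptgr2 lies between -0.15 and -0.11.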

How the data were processed

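RNA from mouse distal colon had been prepared with a stranded KAPA kit with removal of ribosomal RNA and sequenced as single reads of 100 bases. The deposited values were whole-number counts per Ensembl gene, made by the authors with STAR on mm10 and featureCounts of Subread, per the labels. Versions and the strand setting of the counting are not given in the sources used here. Samples were grouped by line and genotype from the labels, and 96.2% of the genes, with 99.67% of the counts, had a symbol.

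Each line was fitted separately with edgeR 4.0.16 (R 4.3.3; quasi-likelihood test, TMM scaling, filterByExpr, Benjamini-Hochberg adjustment over all genes tested, threshold 0.05). CPM and log2 CPM (prior count 2) used TMM over all 160 libraries, and RPKM used the union of exon bases. Differences between lines were tested in a fit of all libraries. Correlations used permutation tests with 100000 resamples (scipy 1.17.1, Python 3.11.15), of which the smallest p is 1e-05. Libraries with skin RNA were those whose skin marker sum exceeded 10 times the median, and runs of sample numbers were split at gaps over 50. Alternatives were DESeq2 1.42.0, limma-voom (limma 3.58.1), other scalings, filters, covariates and subsets of libraries.

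On simulated counts of these libraries, with log2 changes of 1.5, between 88% and 97.5% of changed genes were recovered for knockout against wild type, and with slopes of 0.5 between 95.5% and 99%. False calls made up 3.41% to 5.91% of the calls. The simulated spread was estimated with the inflammation score in the fit, and only the added slopes varied with the score. The knockout fits held no score, so the recovery for knockout does not give their power for genes that move with inflammation. The 10 genes, the gene lists and the tests were chosen with earlier results of these data known. All 10 genes are named. Of the eicosanoid list, the 3 genes with the smallest p in each slope fit are named, and for each prostaglandin gene the genes with the highest correlation among those with a mean log2 CPM of at least 1. The genes most like Ptger1 are not reported here. No file of the authors' own comparisons was used.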

Additional observations from a re-analysis of the deposited data

Results flagged for a closer look

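The slope of Ptgs1 on the inflammation score differed between the 4 lines (adjusted p = 0.0279 by edgeR's F test over all 160 libraries). The slope was 0.117 in Dok3, 0.047 in Nckap1l, 0.045 in Dock2 and 0.007 in Gpsm3. The difference did not pass without the library with the highest score of each line (adjusted p = 0.178), a fit chosen after seeing the data. In males only, which leaves out the difference in sex make-up, it passed by the same test (adjusted p = 0.0413). That fit was also chosen after seeing the data. Dock2 and Gpsm3 share strain, dose and day and differ in cohort and sex make-up, while Nckap1l and Dok3 also differ in dose, day or strain. Line, cohort, dose, day and strain cannot be told apart.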

How the results depend on the processing

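In 188 alternative fits of the slopes of Ptgs2, Ptges, Hpgd and Ptger2 all 188 kept their direction and an adjusted p under 0.05, with slopes of 0.309 to 0.653, 0.111 to 0.343, -0.325 to -0.118 and 0.125 to 0.377. Of 316 alternative fits of the 27 slopes that passed, 293 did so again, 22 kept the direction without passing and 1 changed sign. The Nckap1l line had 7 genes past the threshold, 4 without the libraries with skin RNA and 4 in males only, where fewer libraries entered. With the colonocyte score added, the slope was -0.012 for Ptgs1 and 0.005 for Ptges2 in Nckap1l, 0.004 for Ptger4 in Dock2, -0.01 for Ptgs1 in Gpsm3, and 0.012 for Ptges2, 0.056 for Ptger1 (adjusted p = 0.0134 by edgeR) and 0.039 for Ptger4 in Dok3. Without the libraries with skin RNA it was -0.008 for Ptgs1 in Gpsm3, 0.006 for Ptger1 and 0.008 for Ptger4 in Dok3. With muscle and skin scores added it was 0.014 for Ptger1 and 0.012 for Ptger4 in Dok3. In males only it was -0.002 for Ptger1 and -0.005 for Ptger4 in Nckap1l. In Dock2 Ptger1 was at -0.001 with a filter of 1 count, -0.001 with a filter of 10 counts and -0.002 with the neutrophil score. Without the library with the highest score Ptger4 was at 0.009 in Dock2 and Ptgs1 at -0.003 in Gpsm3. Of these slopes with a changed sign, Ptger1 with the colonocyte score was the only one to pass, and the cause was not tested. Ptger4 in Gpsm3 passed under 7 alternatives. The knockout minus wild-type change of Ptgs2 was 0.042 in Dock2 by DESeq2, -0.042 in Gpsm3 with the score added and -0.043 in Dok3 without skin RNA; none passed. None of the 10 genes passed between knockout and wild type under any alternative, while the number of all genes that did ran from 0 to 27 in Nckap1l, 0 to 79 in Dock2, 0 to 32 in Gpsm3 and 0 to 15 in Dok3. DESeq2 called 1 gene for a slope difference between genotypes in Nckap1l. For a difference between lines 2 genes were called without the libraries with skin RNA and 0 without the highest-scoring libraries, against 1. Without TMM 0 wild-type pairs passed, against 1. No paired analysis was possible because the labels give no replicate numbers, litters or pairs that tie knockout to wild-type libraries. At 3 counts, 0.15 to 0.69 CPM, depth limited none of the 10 genes, whose smallest count was 10.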
